A study of Mus musculus with 44 samples.

Results

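Transcripts of 8 genes of the RUNX and C/EBP transcription factor families were measured in mouse ovarian follicles exposed to perfluorononanoic acid (PFNA, a fluorinated surfactant). The genes were chosen by symbol: Runx1, Runx2 and Runx3, their cofactor Cbfb, the corepressor Runx1t1, and Cebpa, Cebpb and Cebpd. All 8 were present among the 22674 genes of the table for follicle maturation and among the 18274 genes of the table for ovulation.

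The follicles were wild type and came from CD-1 mice, an outbred strain. In the maturation window, the gonadotropin-dependent phase of follicle growth, 11 control libraries treated with the solvent DMSO were compared with 10 libraries treated with PFNA. In the ovulation window, 12 control libraries treated with human chorionic gonadotropin (hCG), which acts on the luteinizing hormone receptor, were compared with 11 libraries given hCG and PFNA, so that all 23 libraries of this window carried the hCG stimulus. Dose, exposure times and dates are not given in the labels, nor whether replicates came from separate animals or cultures, so p-values measure the spread between these libraries, which may be technical.

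RUNX proteins bind DNA through a shared Runt domain and bind it more tightly as dimers with CBFB, which has no DNA contact of its own. RUNX1T1 acts with corepressor complexes. C/EBP proteins are leucine-zipper factors that bind as dimers to a palindromic site. In granulosa cells the surge of luteinizing hormone is known to act through cyclic AMP and MAP kinase signalling and to induce RUNX and C/EBP factors, and mice whose granulosa cells lack Cebpa and Cebpb, or Cbfb and Runx2, have defects of ovulation and luteinization.

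Short stretches of promoter sequence are shown for the RUNX genes, of which Runx1 and Runx2 fell together during ovulation, and for a pair of C/EBP genes. RefSeq windows on GRCm38.p6, each from 250 bases before to 50 bases after a gene's start, were found for 6 of the 8 genes. Cebpd and Runx1t1 had no entry. A tandem pair of RUNX core letters, 2 copies of ACCACA with the bases GA between them, lay in 1 window each of Runx1, Runx2 and Runx3. It was found on either strand in 4 of 32851 windows (0.0122%), and the other window was that of Gm16225, which overlaps the Runx3 window on the opposite strand. The sites lie at chr16:92826025-92826054 (minus strand), chr17:44814583-44814612 (minus strand) and chr4:135120503-135120532 (plus strand), and capitals mark the repeated ACCACA.
Runx1: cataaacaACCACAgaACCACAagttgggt
Runx2: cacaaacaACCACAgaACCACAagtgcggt
Runx3: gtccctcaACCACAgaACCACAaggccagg
The Runx1 and Runx2 stretches shared 27 of 30 positions and an unbroken run of 22 bases. Runx3 shared 19 positions with Runx1 and 21 with Runx2. The pair begins 28 bases after the start of Runx1, 23 bases after that of Runx2 and 134 bases before that of Runx3. Second windows of Runx1 and Runx3 did not hold it, and the deposited values are per gene, so promoters cannot be told apart. The single core ACCACA occurred in 16.8% of windows, including all those counted for the tandem pair.

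Upstream of Cebpb, the 5 letters TGACG, the core of a cyclic AMP response element, occurred in the sense direction 53 and 7 bases before the start, and once in the antisense direction 180 bases before it. TGACG was searched on both strands and was present in 20.8% of windows. The 100 bases before the starts of Cebpb (chr2:167688815-167688914, plus strand) and Cebpa (chr7:35119193-35119292, plus strand) follow, with TGACG in capitals. They are set side by side as the C/EBP genes that had an entry. A link between these letters and the effect of PFNA was not tested.
Cebpb: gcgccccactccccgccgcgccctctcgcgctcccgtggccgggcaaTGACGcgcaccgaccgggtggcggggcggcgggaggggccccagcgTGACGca
Cebpa: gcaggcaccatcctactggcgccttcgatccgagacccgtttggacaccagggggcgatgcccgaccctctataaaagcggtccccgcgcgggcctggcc
These letters did not occur in the Cebpa stretch. Another motif, TTNNGNAA, a loose form of the C/EBP site, was searched on either strand. It was found only in the Runx2 window among the 6 genes and in 40.7% of all windows. No binding was measured, so these matches describe letters and not occupied sites.

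Values of the maturation window are TPM, which are corrected for transcript length and scaled to the same sum in every library, and the reads behind them are unknown. Values of the ovulation window are estimated counts with library totals from 10600931 to 19511531, given here as TMM-normalized CPM (counts per 1000000 after scaling between libraries). In the maturation PFNA group, the summed level of 14 oocyte markers was 1.06 to 7.51 TPM in 7 of 10 libraries, 187 and 149 TPM in replicates 1 and 2 and 477 TPM in replicate 10, against 183 to 286 TPM in controls. All 13 oocyte markers tested were lower there in limma's test, as were 16.1% of all genes. PFNA replicates 1 and 2 also lay near the controls in an earlier principal component analysis of these data. The maturation fold changes, ratios and counts are therefore also given without them. They were chosen for their likeness to the controls, so leaving them out tends to enlarge differences. P-values of fits without them are therefore no independent test. Replicate 10 was kept in those fits. In the ovulation window, PFNA replicate 5 (14.15 counts per 1000000) and control replicates 2 and 7 (389.5 and 433) stood apart in the same sum, taken over each library's own total. Granulosa markers, from somatic cells of the follicle, summed to 38500 to 61100 TPM in maturation controls and 17500 to 46600 TPM with PFNA. Most of these sums came from Inha, a hormone subunit, with means of 34970 and 21742 TPM. In the ovulation window they summed to 17200 to 23800 CPM in controls and 16500 to 25800 CPM with PFNA. Leukocyte markers other than Cd3e were low, with sums of at most 123 CPM in ovulation controls and 165 CPM with PFNA, and at most 74 and 175 TPM in the maturation groups.

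During ovulation, 6 of the 7 genes tested had a Benjamini-Hochberg adjusted p under 0.05 in edgeR's quasi-likelihood test, 5 of them lower and 1 higher. Across all 13441 genes 73.2% passed this threshold, 35.2% lower and 38% higher, so passing it is common in this window. The sizes were less common: Runx1, Runx2, Cebpb and Cebpd were at least 2-fold lower, as were 9.02% of all genes.

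**Figure D1:**
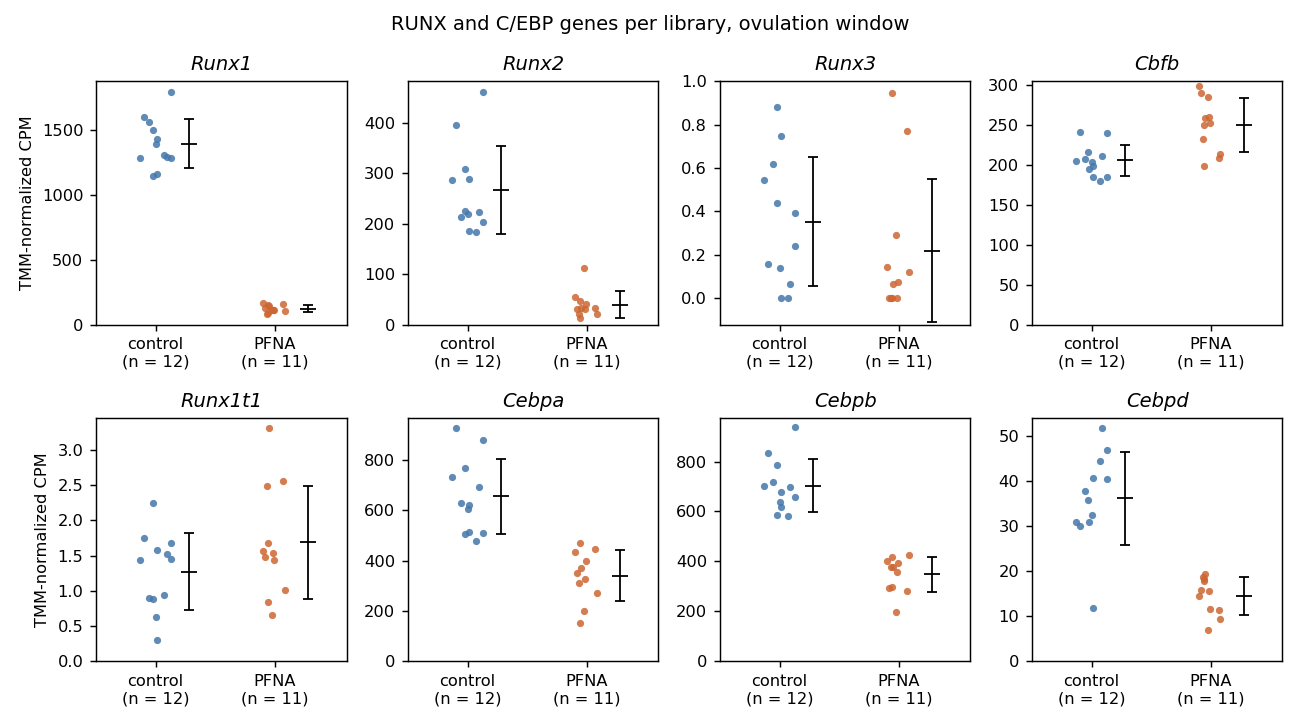
Level of the 8 genes in each library of the ovulation window, in TMM-normalized CPM on linear axes, for controls (n = 12) and PFNA (n = 11); points are libraries and bars the mean and SD. The PFNA libraries lie below every control for Runx1, Runx2, Cebpa and Cebpb, whereas Cbfb is shifted upward and Runx3 is near 0 in both groups.

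Runx1 (chromosome 16, 92601466 to 92826149, minus strand), a DNA-binding subunit induced by the luteinizing hormone surge, had the most negative fold change of the 8 genes. Its level in the controls was 1147 CPM at the lowest, 1347 at the median and 1788 at the highest. With PFNA the lowest, median and highest levels were 84.0, 113 and 166 CPM. No library of either group overlapped the other, and the highest PFNA library was far below the lowest control; 14.1% of all genes had every PFNA library below every control. The mean fell from 1393 ± 189 (SD, n = 12) to 124 ± 28.3 CPM (SD, n = 11), which is 11.3-fold lower (log2 fold change -3.49, SE 0.12, 95% interval -3.74 to -3.24, edgeR adjusted p = 1e-17). By fold change it ranked 59 from the lowest of 13441 genes, and by p it ranked 5. In these follicle libraries, fewer cells carrying a transcript and less of it per cell cannot be told apart.

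Runx2 (chromosome 17, 44495987 to 44814797, minus strand), the second RUNX subunit of the luteinizing follicle, fell as well but was more variable. Controls ranged from 184 to 461 CPM with a median of 225, and PFNA libraries from 13.3 to 113 CPM with a median of 32.5. The groups did not overlap. The mean fell from 266 ± 87.1 (SD, n = 12) to 39.8 ± 27.1 CPM (SD, n = 11), 6.69-fold lower (log2 fold change -2.74, SE 0.28, edgeR adjusted p = 4e-09). PFNA replicate 6 was the highest of its group at 113 CPM, and the next was replicate 5 at 54.8 CPM. In replicate 6 the Runx2 count, 1545, was identical to the Runx1 count, which may be an error in the deposited values. Runx2 overlaps Supt3 on the opposite strand, and whether counting used strand is not stated. Supt3 moved the other way, from 6.86 ± 1.44 (SD, n = 12) to 22.7 ± 6.12 CPM (SD, n = 11; log2 fold change 1.72, edgeR adjusted p = 8.1e-11).

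Runx3 (chromosome 4, 135120652 to 135177990, plus strand), the third RUNX subunit, was close to absent. It had 57 counts in all over the 12 controls and 40 over the 11 PFNA libraries, with 2 and 4 libraries at 0. A count of 0 allows up to 3 counts, or 0.219 to 0.221 CPM in those controls and 0.154 to 0.283 CPM in those PFNA libraries, from counting error only. Levels ran from 0 to 0.880 CPM in controls and from 0 to 0.949 CPM with PFNA, and the ranges overlapped fully at this depth. It was too low to enter the edgeR fit.

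Cbfb (chromosome 8, 105170674 to 105217989, plus strand), which encodes the partner that stabilizes RUNX proteins on DNA, rose slightly. Controls ran from 179 to 241 CPM with a median of 204.5, and PFNA libraries from 199 to 299 CPM with a median of 252. The ranges overlapped, with 7 of 11 PFNA libraries beyond the highest control. The share of genes with at least 7 was not counted. In 11.9% of all genes every PFNA library was above every control, which Cbfb did not reach. The log2 fold change was 0.28 (SE 0.071, edgeR adjusted p = 0.00099), from a mean of 206 ± 19.8 (SD, n = 12) to 250.1 ± 33.7 CPM (SD, n = 11). Runx1t1 (chromosome 4, 13743436 to 13893649, plus strand), the corepressor, was low, and its ranges overlapped. It ran from 0.299 to 2.25 CPM in controls and from 0.659 to 3.30 CPM with PFNA (log2 fold change 0.40, SE 0.30, edgeR adjusted p = 0.23).

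Cebpa (chromosome 7, 35119293 to 35121928, plus strand), a C/EBP factor of differentiating granulosa cells, fell by 0.95 on the log2 scale (SE 0.16, edgeR adjusted p = 1.1e-05). Its lowest, median and highest control levels were 479.7, 624 and 928 CPM. With PFNA they were 151, 352 and 472 CPM. The highest PFNA library lay just below the lowest control, so the groups did not overlap but were close. The means were 655 ± 149 (SD, n = 12) and 339.6 ± 102 CPM (SD, n = 11), which is 1.93-fold lower.

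Cebpb (chromosome 2, 167688915 to 167690418, plus strand), the family member known best as an early target of luteinizing hormone, was 2.02-fold lower. The controls ran from 583 to 938 CPM with a median of 689, and the PFNA libraries from 197 to 426.5 CPM with a median of 378.5. Here a clear gap separated the groups, with 11 of 11 PFNA libraries under the lowest control. The log2 fold change was -1.01 (SE 0.11, edgeR adjusted p = 6.4e-09), between means of 703 ± 105 (SD, n = 12) and 348 ± 71.1 CPM (SD, n = 11). Cebpb overlaps Tmem189 on the opposite strand, which fell by a like amount, from 48.8 ± 3.25 (SD, n = 12) to 24.1 ± 4.23 CPM (SD, n = 11; log2 fold change -1.02, edgeR adjusted p = 1.6e-11).

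Cebpd (chromosome 16, 15887286 to 15891031, plus strand), a C/EBP gene that responds to acute stimuli in many tissues, had the most negative fold change of the C/EBP genes. Controls ran from 11.8 to 51.7 CPM with a median of 36.8, and PFNA libraries from 6.88 to 19.3 CPM with a median of 15.6. Control replicate 9, at 11.8 CPM, lay within the PFNA range, and the other 11 controls, from 29.9 CPM upward, lay above it. The mean fell from 36.1 ± 10.3 (SD, n = 12) to 14.5 ± 4.11 CPM (SD, n = 11; log2 fold change -1.32, SE 0.19, edgeR adjusted p = 8.3e-07). Spidr, on the opposite strand of this locus, was higher, with 14.4 ± 2.78 (SD, n = 12) and 23.6 ± 6.87 CPM (SD, n = 11; log2 fold change 0.71, edgeR adjusted p = 7.7e-05).

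Beside these falls, markers of other cell types moved in both directions. These counts are to be read against the 38% of all genes called higher and 35.2% called lower in this window. Of 10 leukocyte markers tested, 5 were higher in the edgeR test, and 7 of 9 endothelial markers were higher. Of 13 oocyte markers tested 6 were higher, and 13 were higher without the 3 libraries that stood apart. Those 3 libraries were chosen by the sum of these same markers. The choice itself raises the second count, so no conclusion is drawn from it. Of 12 granulosa markers 7 were higher and 3 lower, and of 11 theca and stroma markers 6 were higher and 2 lower. The leukocyte count was 9 without control replicate 5 and 3 without PFNA replicate 4, and the count of higher theca and stroma markers was 3 without PFNA replicate 5. Granulosa markers named by the smallest p included Fshr, the receptor of follicle-stimulating hormone, which rose from 13.7 ± 4.03 (SD, n = 12) to 63.1 ± 15.7 CPM (SD, n = 11), and Nr5a1, a steroidogenic regulator, which fell from 158 ± 25.0 to 104 ± 14.7 CPM. The T cell gene Cd3e, singled out after its values were seen, was at 0 to 0.507 CPM in controls and 153 to 656 CPM in every PFNA library, whereas the sum of the other 14 leukocyte markers had medians of 29.6 and 69.8 CPM. The part of these shifts in the RUNX and C/EBP values was not tested. With the oocyte marker share as a covariate the log2 fold changes were -3.41 for Runx1, -2.54 for Runx2, -0.97 for Cebpb and -0.85 for Cebpa, and the count of genes called was again 6. Without the 3 libraries that stood apart in oocyte markers they were -3.56, -2.85, -1.05 and -1.01 for the same genes, and 6 were called.

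During maturation, of the 4 genes above the filter of a mean of 1 TPM, only Cebpa changed in limma's test at an adjusted p under 0.05, against 29.4% of 13712 genes called in either direction and 16.1% called lower. Its log2 fold change of -0.97 (SE 0.14, 95% interval -1.26 to -0.69, limma adjusted p = 2.7e-05) refers to log2(TPM + 1), a scale on which changes of low genes appear smaller than they are. Without PFNA replicates 1 and 2, left out for lying near the controls, the count was 2. It was made up of Cebpa (-1.12) and Cebpb (-0.29, limma adjusted p = 0.024), and the choice of libraries favours larger differences. Cebpd (0.40) and Cbfb (0.12) had limma adjusted p of 0.17 and 0.12. That fit called 5201 of 13725 genes, 2600 of them higher.

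**Figure D2:**
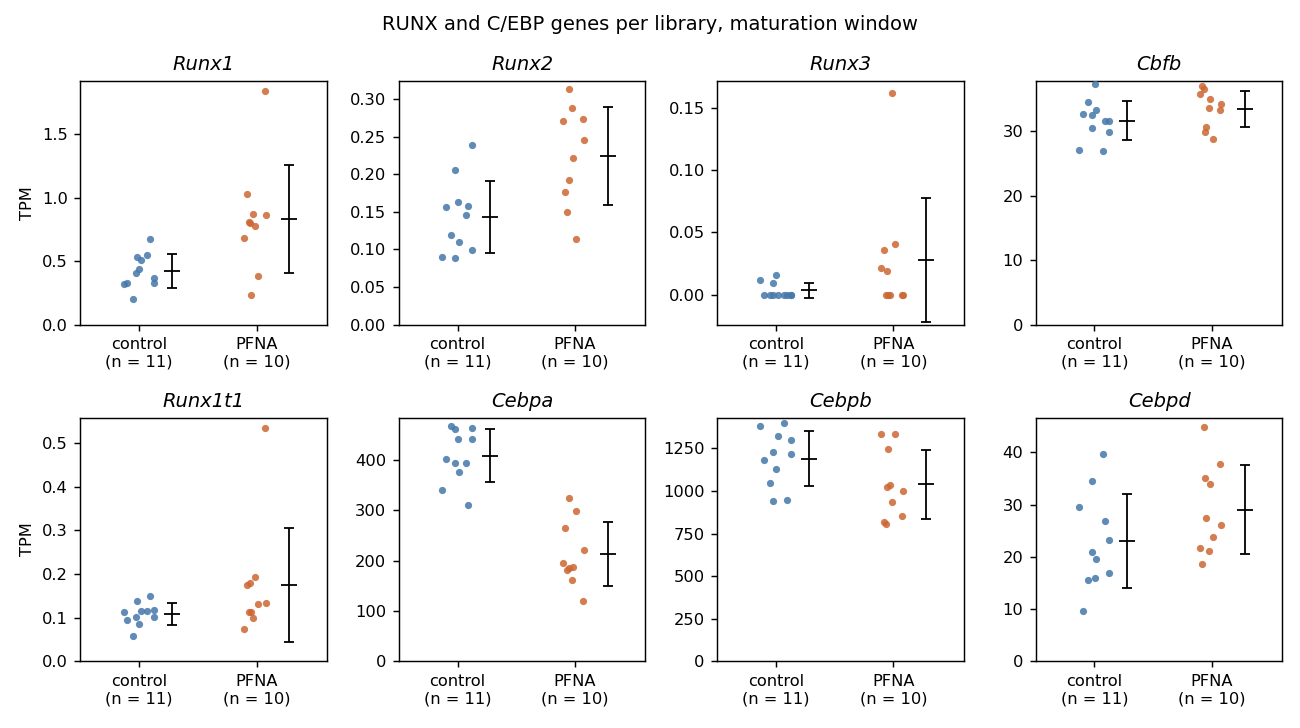
Level of the 8 genes in each library of the maturation window, in TPM on linear axes, for controls (n = 11) and PFNA (n = 10); points are libraries and bars the mean and SD. Cebpa is lower with PFNA in 9 of 10 libraries than in any control, and Runx1, Runx2, Runx3 and Runx1t1 stay mostly below 1 TPM in both groups.

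In TPM, which allows genes to be compared by level, Cebpb was the highest of the 8 in the controls (1190 ± 161, SD, n = 11), followed by Cebpa (408 ± 52.2). Neither range touched another gene's. Cbfb (31.6 ± 3.03) and Cebpd (22.97 ± 8.99) came next and their ranges overlapped. Runx1 (0.424 ± 0.134), Runx2 (0.143 ± 0.0482) and Runx1t1 (0.108 ± 0.0249) were under 1 TPM, and neighbours in this order overlapped: the lowest Runx1 value (0.204) was below the highest Runx2 value (0.239), and the ranges of Runx2 and Runx1t1 overlapped. Runx3 was listed at 0 in 8 of 11 controls.

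Cebpa ran from 309.8 to 466 TPM in controls with a median of 402. With PFNA it ran from 121 to 324 TPM with a median of 191. Replicate 2, the highest at 324 TPM, was the 1 PFNA library inside the control range, and replicate 1 followed at 298.5 TPM. Means were 408 ± 52.2 (SD, n = 11) and 214 ± 63.6 TPM (SD, n = 10). Cebpa had 9 of 10 PFNA libraries below every control, and the share of genes with at least 9 was not counted. In 0.788% of all genes every PFNA library was below every control, which Cebpa did not reach. Oocyte markers were lower in the same comparison, and with the oocyte marker share as a covariate the log2 fold change was -0.90 (SE 0.20, limma adjusted p = 0.021). Replicate 10, whose oocyte marker sum was above every control, had the lowest Cebpa level, 121 TPM. Over all genes 16.1% were called lower and 13.3% higher in this window. Of the other marker lists, 6 of 12 granulosa markers were lower in limma's test, including Fshr (6.60 ± 1.30, SD, n = 11, to 2.30 ± 0.904 TPM, SD, n = 10) and Inha, a hormone subunit. Of 11 theca and stroma markers 2 were higher and 1 was lower, Insl3, a theca cell hormone (log2 fold change -1.12, limma adjusted p = 0.045). The Insl3 call was lost without control replicate 5, 6, 7, 10 or 12 or PFNA replicate 1, 7, 9 or 10. Only 1 of 4 leukocyte markers tested passed the threshold, Cd68 (limma adjusted p = 0.043), a count that ran from 0 to 2 with 1 library left out. Without PFNA replicates 1 and 2, 7 granulosa markers were lower and 1 higher, 3 theca and stroma markers were higher and 2 leukocyte markers were higher. The part of granulosa, theca and leukocyte markers in the Cebpa value was not tested.

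Cebpb, the highest of the 8, did not pass the threshold. It ran from 941 to 1400 TPM in controls and from 803 to 1337 TPM with PFNA, with medians of 1219 and 1010, so most libraries overlapped (log2 fold change -0.21, SE 0.10, 95% interval -0.42 to 0.0039, limma adjusted p = 0.13). Cebpd ran from 9.73 to 39.8 TPM in controls and from 18.6 to 44.9 TPM with PFNA (log2 fold change 0.37, SE 0.20, limma adjusted p = 0.18). Cbfb was the steadiest of the 8, from 27.0 to 37.2 TPM in controls and from 28.8 to 37.0 TPM with PFNA (log2 fold change 0.08, SE 0.059, limma adjusted p = 0.32).

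The RUNX subunits were too low for the planned fit, and their means were higher with PFNA in this window. Runx1 ran from 0.204 to 0.677 TPM in controls with a median of 0.410, and from 0.234 to 1.83 TPM with PFNA with a median of 0.805. Replicates 1 and 2 were within the control range and the other 8 PFNA libraries were above every control. The mean was 0.829 ± 0.426 TPM with PFNA (SD, n = 10), 1.96 times that of controls. Runx2 ran from 0.0890 to 0.239 TPM in controls and from 0.113 to 0.312 TPM with PFNA, with 5 of 10 PFNA libraries above every control. The overlapping gene Runx2os1 was at 0.204 ± 0.595 (SD, n = 11) and 1.07 ± 1.83 TPM (SD, n = 10) in the same groups. Supt3 was at 0.719 ± 0.0631 and 0.641 ± 0.147 TPM. Whether counting used strand is not stated, and the part of these genes in the Runx2 values was not tested. In a limma fit with no filter on low values, Runx1 and Runx2 were higher at adjusted p of 0.034 and 0.046 over all genes, with log2 fold changes of 0.33 and 0.10 on a scale that compresses such low values. Runx1t1 and Runx3 did not pass there (limma adjusted p = 0.26 and 0.29). The unfiltered fit called 4327 of 22672 genes, 1832 of them higher. Runx1t1 ran from 0.0575 to 0.151 TPM in controls and from 0.0749 to 0.534 TPM with PFNA, and Runx3 was listed at 0 in 5 of 10 PFNA libraries. The highest Runx1 and Runx1t1 values were both from PFNA replicate 10.

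**Figure D3:**
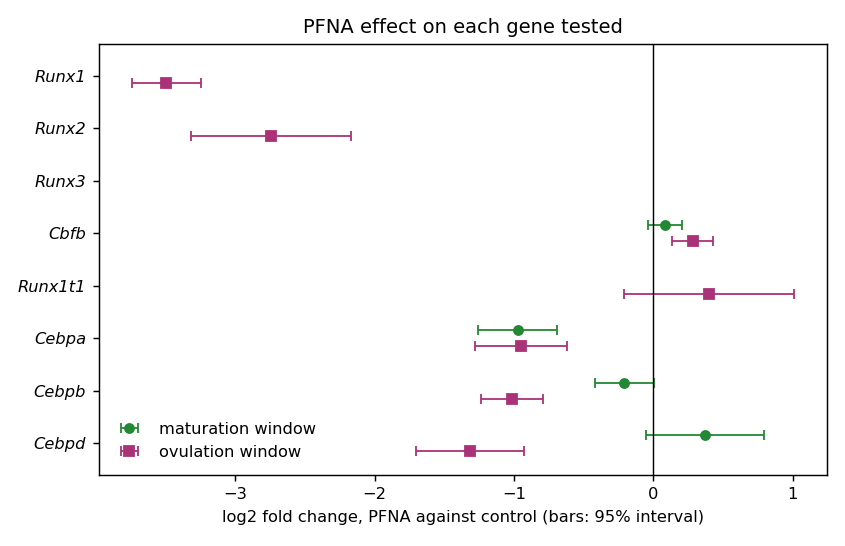
Fold change of each tested gene on a log2 axis, PFNA against control, with 95% intervals, for the maturation window (limma, circles) and the ovulation window (edgeR, squares); genes under the filter have no point. Cebpa lies near -1 in both windows, Cebpb and Cebpd lie lower in the ovulation window, and Runx1 has the most negative value, -3.49.

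Whether the effect of PFNA differed between the windows was tested for the 4 genes that passed the filters of both tables, as the limma effect in the ovulation window minus that in the maturation window. Of 11215 genes 67.7% differed at an adjusted p under 0.05, 35.6% with a lower and 32% with a higher effect in ovulation. Cebpd differed by -1.61 on the log2 scale (SE 0.28, limma adjusted p = 2.2e-06) and Cebpb by -0.82 (SE 0.15, limma adjusted p = 4.8e-06), both lower in the ovulation window. For Cebpa the difference was -0.01 (SE 0.21, limma adjusted p = 0.97), with effects of -0.97 and -0.99 in the respective windows. For Cbfb it was 0.19 (SE 0.092, limma adjusted p = 0.060), and it passed the threshold with median-ratio scaling (0.25, limma adjusted p = 0.019). The RUNX subunits could not be included.

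Ratios between genes within a library, taken after adding 1 to each value, depend little on how libraries were scaled. They were compared for 6 combinations of gene pair and window by two-sided permutation of 100000 resamples, adjusted over the 6. In the ovulation window the log2 ratio of Runx1 to its cofactor Cbfb changed from 2.75 ± 0.118 (SD, n = 12) to -1.03 ± 0.306 (SD, n = 11), a difference of -3.78 (SE 0.095, permutation p = 2e-05, the smallest these permutations can give, adjusted p = 0.00012). All 11 PFNA ratios lay below all 12 control ratios. These are ratios of counts not divided by length, so only their change can be read. Runx1 fell more than Runx2: the log2 ratio of Runx1 to Runx2 moved from 2.43 ± 0.307 (SD, n = 12) to 1.79 ± 0.684 (SD, n = 11), with 6 of 11 PFNA libraries below every control (permutation adjusted p = 0.0046). PFNA replicate 6 had a ratio of 0, since its Runx1 and Runx2 counts were identical at 1545, and the reason was not tested. The other PFNA libraries and the controls overlapped. With any 1 library left out the difference ran from -0.72 to -0.46 (permutation adjusted p from 0.0014 to 0.0098).

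The ratios among C/EBP genes were compared in both windows. During maturation the log2 ratio of Cebpb to Cebpa rose from 1.54 ± 0.259 (SD, n = 11) to 2.31 ± 0.378 (SD, n = 10), by 0.77 (SE 0.14, permutation adjusted p = 0.00054), and 8 of 10 PFNA libraries were above every control. Without PFNA replicates 1 and 2 the difference was 0.83 (permutation adjusted p = 0.00063). During ovulation it was 0.12 ± 0.171 (SD, n = 12) and 0.075 ± 0.441 (SD, n = 11), a difference of -0.05 (SE 0.14, permutation adjusted p = 0.75), with a wider spread under PFNA. Cebpb relative to Cebpd was lower with PFNA during maturation by 0.58 (log2 ratio from 5.72 ± 0.532 to 5.14 ± 0.575, permutation adjusted p = 0.039). That call was lost when any 1 of 11 libraries was left out: PFNA replicates 3, 4, 5, 9 and 10 and control replicates 1, 2, 3, 5, 6 and 10, with adjusted p from 0.053 to 0.084. Without PFNA replicates 1 and 2 together it was -0.69 (permutation adjusted p = 0.022). During ovulation the difference of this ratio was 0.21 (SE 0.19, permutation adjusted p = 0.35).

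**Figure D4:**
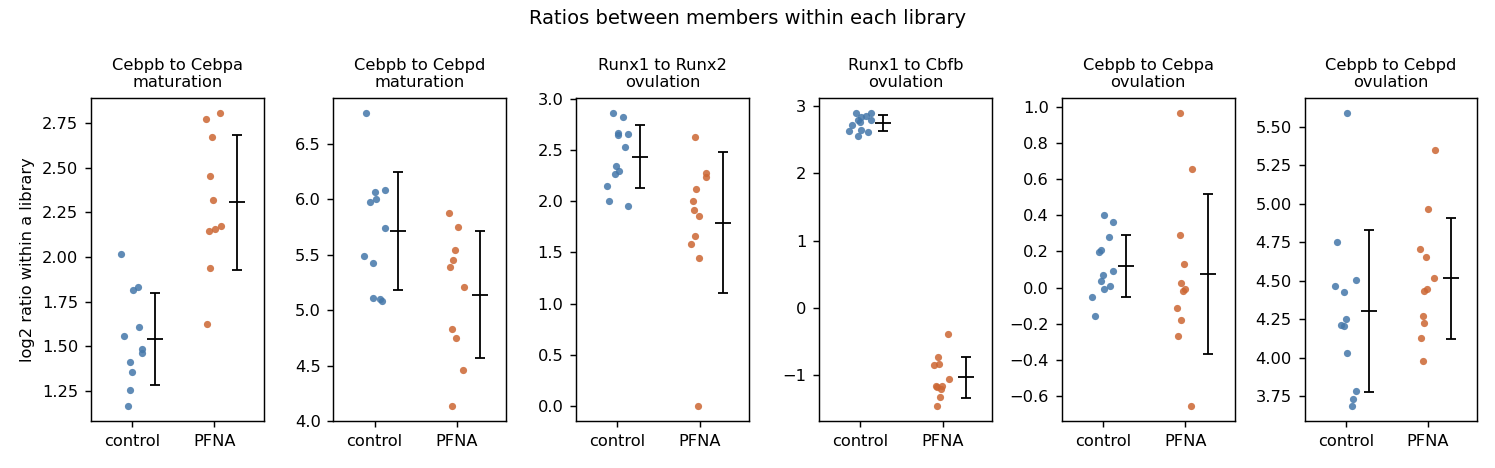
Log2 ratio of 2 transcripts within each library for the 6 combinations compared, controls at the left and PFNA at the right of each panel; points are libraries and bars the mean and SD. The Runx1 to Cbfb ratio is above 0 in every control and below 0 in every PFNA library of the ovulation window, and the Cebpb to Cebpa ratio of the maturation window is above every control in 8 of 10 PFNA libraries.

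Within groups, 12 relations between pairs of these genes were computed on log2 values, added after the values were seen. In ovulation controls Cebpb and Cebpa varied together (n = 12, Pearson r = 0.873, permutation p = 0.00027, adjusted p = 0.0032; Spearman rho = 0.909, permutation p = 0.00015, adjusted p = 0.0018), with r = 0.766 without the 2 libraries farthest from the median and 0.734 in CPM without TMM scaling. Runx1 and Cbfb had r = 0.792 (permutation p = 0.0021, adjusted p = 0.013) and rho = 0.692 (permutation p = 0.016, adjusted p = 0.084), but r was 0.558 without the 2 farthest libraries and 0.0876 in CPM without TMM scaling, so this relation rested on the scaling. Runx1 and Runx2 had r = 0.756 (permutation p = 0.0042, adjusted p = 0.017) and rho = 0.545 (permutation p = 0.072, adjusted p = 0.22), with r = 0.413 without the 2 farthest libraries. In the other 9 relations the adjusted permutation p of r was at least 0.24.

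Genes nearest to Runx1 over the 23 ovulation libraries were Gdnf, a neurotrophic growth factor, Vstm5 and Ier5, an immediate early gene. They were found among 8871 genes by the root mean square difference from Runx1 in log2(CPM + 1) after subtraction of the control mean, which was 0.363, 0.369 and 0.371. Gdnf fell from 275 ± 78.0 (SD, n = 12) to 19.2 ± 3.81 CPM (SD, n = 11). Nearest to Runx2 were the collagen receptor subunit Itga2 (0.278), the protocadherin Pcdh7 (0.341) and the guidance receptor Robo2 (0.344). Nearest to Cebpb were the transcription elongation kinase Cdk9 (0.172), Wtip (0.178) and Svbp (0.189). The distance includes the difference between groups, so genes with a like fold change come out near. Vstm5 was at 0.921 CPM with PFNA, where adding 1 makes its fall (edgeR log2 fold change -4.51) appear smaller. These likenesses describe the same libraries and carry no test.

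Other genes of the same pathways were counted from fixed lists, to be read against the 73.2% of all genes called. Of 17 partners of RUNX, 12 were lower and 2 higher (median log2 fold change -0.49, against 0.04 over all genes). The coactivators Ep300 and Kat6a and the corepressor Sin3a fell, Ep300 from 256 ± 27.0 (SD, n = 12) to 162 ± 16.3 CPM (SD, n = 11; log2 fold change -0.66, edgeR adjusted p = 1.1e-09). The corepressor Tle2, which binds RUNX proteins, rose from 3.99 ± 0.907 (SD, n = 12) to 37.2 ± 8.37 CPM (SD, n = 11; log2 fold change 3.22, edgeR adjusted p = 3.8e-16), and the acetyltransferase Kat6b rose from 31.3 to 39.0 CPM.

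Of 10 C/EBP relatives and regulators tested during ovulation, 6 were higher and 3 lower (median log2 fold change 1.26). Ddit3, a stress-induced C/EBP that forms dimers with other members, rose from 5.10 ± 1.02 (SD, n = 12) to 31.3 ± 8.01 CPM (SD, n = 11; log2 fold change 2.61, edgeR adjusted p = 1.3e-14). The pseudokinases Trib1 and Trib2, which bring the ubiquitin ligase Cop1 to C/EBP alpha, moved in opposite directions. Trib2 rose from 213 ± 39.7 to 732 ± 177 CPM and Trib1 fell from 98.3 ± 21.5 to 27.8 ± 5.55 CPM. Cop1 itself fell by 0.21 on the log2 scale (edgeR adjusted p = 0.028).

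In the maturation window 13.3% of all genes were called higher and 16.1% lower. Of 17 RUNX partners 3 were higher (Tle1, Ncor1 and Ep300) and 1 was lower, Cbfa2t3, a relative of Runx1t1, from 19.7 ± 6.16 (SD, n = 11) to 9.70 ± 4.48 TPM (SD, n = 10; limma adjusted p = 0.0012). The number higher was 6 without PFNA replicate 2 and 1 without PFNA replicate 6, 7 or 10; the number lower was 2 without PFNA replicate 3 or 8. Without PFNA replicates 1 and 2 together 7 were higher and 1 lower. That fit called 5201 of 13725 genes, 2600 of them higher. Of 9 C/EBP relatives 4 were higher, among them Ddit3 (17.5 to 27.2 TPM, limma adjusted p = 0.00074), Cop1 and Nfil3, and 6 were higher without PFNA replicates 1 and 2. With the oocyte marker share as a covariate, 0 members of either list were higher in limma's test (1 RUNX partner and 3 C/EBP relatives at an unadjusted p under 0.05). The fit with this covariate called 648 of 13712 genes, 285 of them higher, against 4030 and 1824 without it.

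Luteinization genes, a list that includes genes of steroid synthesis, cholesterol transport and the corpus luteum, were more often lower than higher in the ovulation window. Of 22 tested, 12 were lower and 6 higher in edgeR's test (median log2 fold change -1.03). Over all genes 35.2% were called lower and 38% higher. Ptgs2, the prostaglandin synthase of the ovulatory follicle, fell from 5646 ± 1997 (SD, n = 12) to 153 ± 57.0 CPM (SD, n = 11; log2 fold change -5.21, edgeR adjusted p = 7.7e-15). Parm1 and Timp1, a protease inhibitor, fell from 210.1 and 181 CPM to 41.1 and 44.9 CPM.

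Not all of the list moved that way. Abcg1, a cholesterol exporter, Lhcgr, the receptor of luteinizing hormone and hCG, and Rgcc, a cell cycle regulator, rose, with log2 fold changes of 2.06, 1.80 and 0.74. For Lhcgr 5 of 11 PFNA libraries were above every control (54.3 ± 27.3, SD, n = 12, against 189 ± 216 CPM, SD, n = 11). Of the steroid genes, named after their values were seen, Star (cholesterol import into mitochondria) fell from 890.5 to 203 CPM and Scarb1 (uptake of lipoprotein cholesterol) from 1507 to 476 CPM, whereas Hsd3b1 and Fdx1 had edgeR adjusted p of 0.16 and 0.94.

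**Figure D5:**
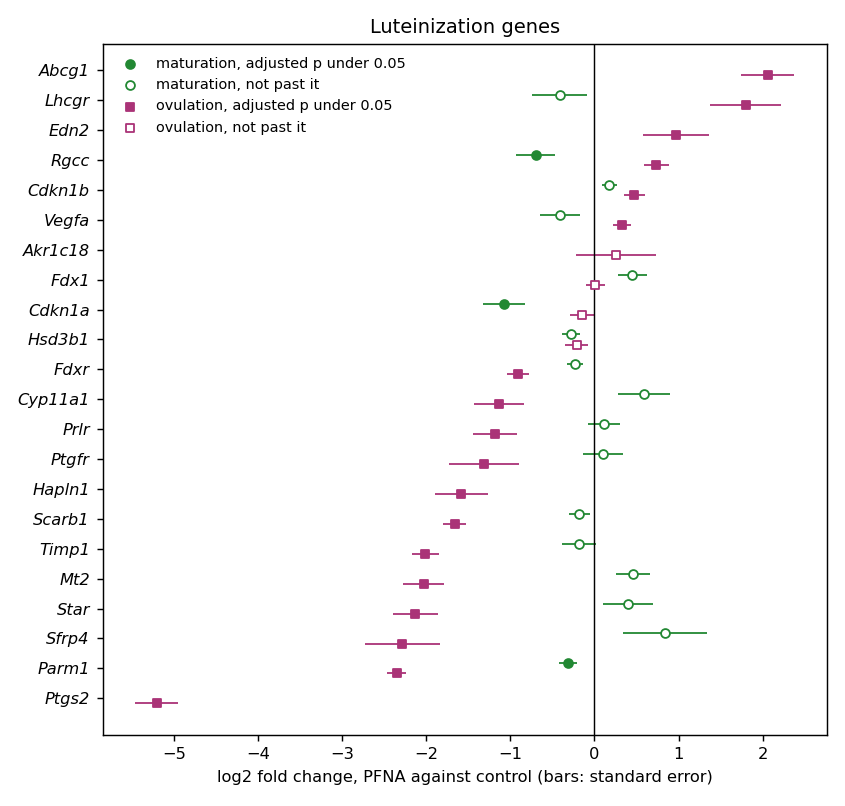
Fold change on a log2 axis, PFNA against control, of 22 luteinization genes in the maturation window (limma, circles) and the ovulation window (edgeR, squares), with bars for the standard error; filled symbols have an adjusted p under 0.05, and genes below the maturation filter have no circle. In the ovulation window 12 genes are filled to the left of 0 and 6 to the right, with Ptgs2 at -5.21, and in the maturation window 3 are filled, all to the left.

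In the maturation window 17 of these genes could be tested, and 3 were lower and 0 higher in limma's test (5 and 2 at an unadjusted p under 0.05). They were the cell cycle inhibitor Cdkn1a (46.3 ± 17.2, SD, n = 11, to 22.6 ± 11.96 TPM, SD, n = 10; limma adjusted p = 0.0032), Rgcc and Parm1. Rgcc was thus lower during maturation and higher during ovulation, and the test of that difference is not reported for this gene. The number higher was 3 without PFNA replicate 1 and 1 without control replicate 1, 8 or 10 or PFNA replicate 7 or 9. Without PFNA replicates 1 and 2 together 2 were higher and 4 lower, in a fit that called 5201 of 13725 genes. The number lower was 5 without control replicate 8 or PFNA replicate 8, and 0 with the oocyte covariate (3 at an unadjusted p under 0.05). The covariate fit called 648 genes in all, against 4030 without the covariate.

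A list of ovulatory signal genes, made up of growth factors, their receptor, kinases and transcription regulators, was also mostly lower in the ovulation window. Of 12 tested, 10 were lower and 2 higher, against 35.2% and 38% of all genes. The growth factor Ereg fell from 2498 ± 905 (SD, n = 12) to 195 ± 195 CPM (SD, n = 11; log2 fold change -3.68, edgeR adjusted p = 1.6e-08), and the progesterone receptor gene Pgr fell from 899 ± 405 to 65.3 ± 59.5 CPM. The kinase Map2k2 fell from 151 ± 11.2 to 89.3 ± 5.41 CPM. Egfr, the receptor of these growth factors, and the coregulator Nrip1 rose, with log2 fold changes of 0.49 and 0.80. During maturation 4 of 10 were higher, with Ereg, Creb1 and Nrip1 named by the smallest p, and Map2k1 and Map2k2 were lower; without PFNA replicates 1 and 2, 3 were higher and 2 lower. The number lower was 1 without control replicate 3, 7, 8 or 12 or PFNA replicate 4, 5, 9 or 10. With the oocyte covariate 0 were called in either direction (1 higher and 1 lower at an unadjusted p under 0.05). The covariate fit called 648 of 13712 genes in all.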

How the data were processed

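RNA sequencing of poly-A RNA from mouse ovarian follicles was deposited as 2 gene tables; per the submitters' processing notes Partek, Bowtie2 and HISAT2 were used, and their roles, annotation and use of strand are not given in the sources used here. The maturation values the authors deposited are TPM, as found from the values: each library sums to 1000000 and levels relative to the other table fall with length (Spearman -0.559 over 7639 genes). The ovulation values the authors deposited are estimated counts, which were rounded to whole numbers. Its file name calls the maturation values raw counts.

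Titles were matched to column names. The 1 column left over was taken as maturation control replicate 6, and maturation control replicate 4 was not analysed here. No per-sample column was left unused. The highest correlation within a group was 0.9733 in the maturation and 0.9912 in the ovulation table.

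Ovulation counts were tested with edgeR 4.0.16 (R 4.3.3; filterByExpr, TMM, quasi-likelihood, robust), and maturation TPM with limma 3.58.1 on log2(TPM + 1) for genes whose mean reached 1 TPM (trend, robust). P-values were adjusted by Benjamini-Hochberg over all genes, threshold 0.05. The difference between windows was the difference of 2 limma effects with Satterthwaite degrees of freedom. Ratios and correlations were tested by permutation in scipy 1.17.1. The scripts were tested on simulated data. DESeq2 1.42.0 was an alternative. The genes, lists and named-gene rule (all 8 genes; per list and window the 3 higher and 3 lower genes with the smallest p; for Runx1, Runx2 and Cebpb the 3 nearest genes with a mean of at least 10 CPM) were chosen with earlier results of these data known. Coordinates are GRCm38, 1-based. Intervals of counts cover counting error only. The labels give no batch. A gene of the luteinization list is not reported here.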

Additional observations from a re-analysis of the deposited data

Results flagged for a closer look

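In the maturation PFNA group the highest library lay far from the rest for 3 of the 10 results searched with Dixon's criterion. About 1 of 20 groups of normally distributed values meets this criterion by chance. That rate need not hold for TPM near 0, such as Runx3, which was 0 in 5 of 10 libraries. Runx1 was 1.835 TPM in replicate 10, and the next library was at 1.029 TPM. Runx1t1 was 0.5338 TPM in the same library, and the next was at 0.1933 TPM. Runx3 was 0.1624 TPM in replicate 5, and the next was at 0.04038 TPM. The effect of PFNA differed between the ovulation and maturation windows by a test of the difference for Cebpb, by -0.8234, and for Cebpd, by -1.615 on the log2 scale.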

How the results depend on the processing

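In the ovulation window 6 of the genes were called in each alternative (another scaling, DESeq2, limma, no filter, the oocyte covariate, the libraries that stood apart left out) and in each of 23 fits without 1 library, where Runx1 ranged from -3.54 to -3.45, Runx2 from -3.04 to -2.65 and Cebpb from -1.05 to -0.96. In the maturation window the count of 1 became 3 with no filter on low values and 2 without PFNA replicates 1 and 2, and it was 1 in each of 21 fits without 1 library, where Cebpa ranged from -1.05 to -0.89. Cbfb in that window was -0.024 with the oocyte covariate (limma adjusted p = 0.89). The Cebpa difference between windows was 0.042 with median-ratio scaling and 0.074 without the libraries that stood apart, an alternative added after seeing the data, and the ovulation ratio of Cebpb to Cebpa ranged from -0.13 to 0.028 with 1 library left out, above 0 without PFNA replicate 9; the cause was not tested. The count of ratios past the threshold, 4, was 3 to 4 with 1 library left out.

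Replicate numbers do not pair the samples: same-numbered libraries had correlated deviations of -0.138 to 0.168 over 9 maturation pairs and -0.193 to 0.073 over 11 ovulation pairs, and 0 correlated best with its own number. With the replicate block 1 gene was called in the maturation window (Cebpa, -0.99), 6 in the ovulation window (Runx1, -3.54) and 2 in the difference between windows. Depth is unknown for TPM, so the low RUNX values of the maturation window have no counting interval.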
